A study of Mus musculus with 12 samples.

Results

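The genes of the heterotrimeric G protein machinery were examined in 2 mouse testis cell lines: the alpha, beta and gamma subunits, the regulators of G protein signalling (RGS) and the phospholipases C beta (PLC-beta). They were chosen by gene symbol (Gna, Gnb, Gng and Gngt genes, numbered Rgs genes, and Plcb1 to Plcb4), and 52 of the 17995 genes in the table met this rule. C18-4 cells, a spermatogonial stem cell line, and TM4 cells, a Sertoli cell line, carried shM5, a mixture of 3 shRNAs against the muscarinic receptor M5, or the control shNC. There were 3 libraries of each of the 4 groups, 12 in all, and the study asked how loss of M5 alters gene expression in each line. Both lines were stably transfected in culture, and the labels give their strain as IRC. C18-4 cells were kept in DMEM/F12 and TM4 cells in DMEM, so line and medium cannot be told apart. Nothing states that the 3 libraries of a group came from separate cultures, so the p-values measure the spread between these libraries, which may be technical.

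M5 belongs to the receptors that couple to Gq/11. In this pathway the activated receptor loads the alpha subunit with GTP, alpha q or alpha 11 then switches on PLC-beta, and PLC-beta cleaves a membrane lipid into IP3, which releases calcium, and diacylglycerol, which activates protein kinase C. Beta and gamma subunits form a pair that holds the inactive alpha subunit and signals in its own right once released, and RGS proteins end the signal by speeding GTP hydrolysis on alpha subunits.

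Values were RPKM, reads scaled to gene length and library size. Comparing levels between genes or libraries assumes that this scaling suffices, and results under other scalings are given below. Summed RPKM per library ranged from 506413 to 540231 in C18-4 and from 512868 to 538387 in TM4. Chrm5, the gene of M5, was listed at 0 in 10 of the 12 libraries and at 0.01 RPKM in 1 shNC library of each line, so its knockdown could not be checked on mRNA. The study itself reported less M5 protein with shM5 in both lines, by immunofluorescence. In TM4, shNC library 3 lay far from shNC libraries 1 and 2 and close to the shM5 libraries, so log2 changes in TM4 are given with and without it. The defining markers did not set the lines apart as their labels would. The germ cell genes Ddx4, Dazl and Zbtb16 reached at most 0.05 RPKM in any C18-4 library, while Wt1, a Sertoli cell transcription factor, was at 53.9 to 72.3 RPKM in C18-4 and at 0.06 to 0.15 RPKM in TM4. Of 15 spermatogonial markers in the table, 3 had a mean RPKM of 0.5 or more in C18-4 (Uchl1, Id4 and Etv5), and of 16 Sertoli markers, 8 did so in each line. Amh and Cldn11 were under 0.2 RPKM in every library of both lines. The lines are therefore called by name below.

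Of the 52 members, 24 had a mean RPKM of 0.5 or more in both lines, 7 only in C18-4, 2 only in TM4 and 19 in neither. The 19 silent or nearly silent members, among them the Gq family genes Gna14 and Gna15 and the phospholipases Plcb1 and Plcb2, reached at most 0.79 RPKM in any library. Of the 17 RGS members, 8 reached a mean of 0.5 RPKM in at least 1 line. Filtering at this mean left 31 members to test in C18-4, 26 in TM4 and 32 across both lines.

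**Figure D1:**
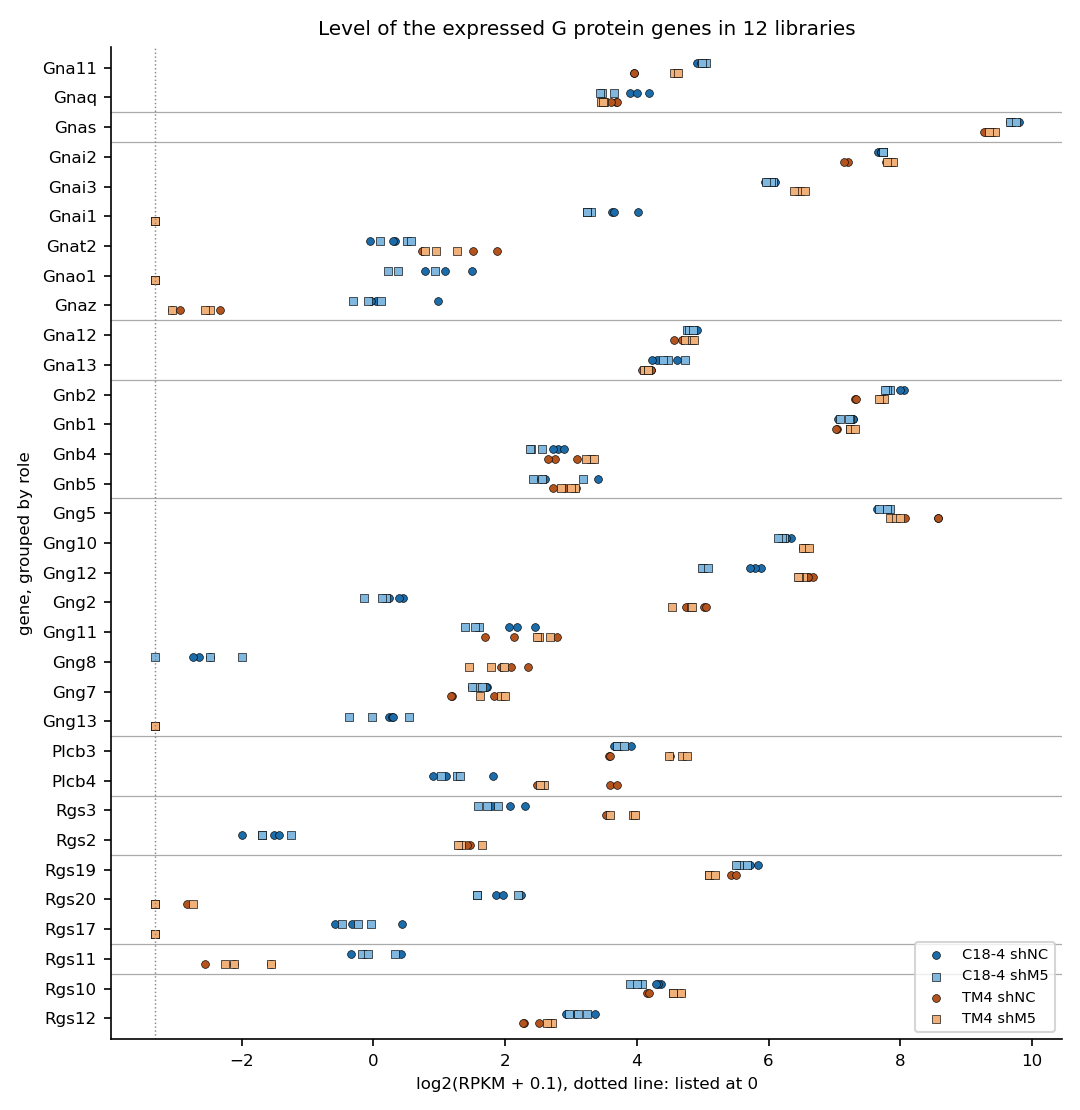
Level of each of the 33 members with a mean RPKM of 0.5 or more in 1 line or both, as log2(RPKM + 0.1) in all 12 libraries, with genes grouped by role. Circles are shNC and squares shM5, blue is C18-4 and orange TM4. Points of Gnai1, Gnao1, Gng13 and Rgs17 lie on the dotted line in TM4, where they were listed at 0 in all 6 libraries.

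The pool of alpha subunit mRNA was dominated by Gnas, the stimulatory alpha subunit that activates adenylyl cyclase. Gnas made up 67.7% to 69.2% of the summed alpha subunit RPKM in C18-4 libraries and 61.9% to 67.2% in TM4 libraries. Gnai2, the main inhibitory alpha subunit here, followed with 16.2% to 17.8% in C18-4 and 15.4% to 21.7% in TM4. The Gq/11 subunits were a small part: Gna11 contributed 2.43% to 2.77% in C18-4 and 1.64% to 2.33% in TM4, and Gnaq 0.905% to 1.41% in C18-4 and 1.02% to 1.40% in TM4. Gna11 was above Gnaq in each of the 12 libraries. Among the phospholipases that Gq/11 activates, Plcb3 took 81.0% to 87.0% of the PLC-beta RPKM in C18-4, whereas in TM4 its share spread from 47.2% to 81.2%.

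Among beta subunits, Gnb2 and Gnb1 were the abundant ones, with 58.2% to 61.1% and 35.7% to 38.9% of the beta pool in C18-4 and 51.9% to 55.9% and 39.4% to 43.2% in TM4. Gng5 was the leading gamma subunit, with 58.6% to 66.5% of the gamma pool in C18-4 and 50.3% to 62.2% in TM4. Gng12 ranged from 9.22% to 16.1% in C18-4 and from 15.9% to 20.1% in TM4. Of the RGS pool, Rgs19, an RGS protein of the RZ family, held 54.7% to 60.0% in C18-4 and 40.4% to 54.5% in TM4, and Rgs10, a small RGS protein, 18.3% to 23.5% and 21.8% to 31.4%.

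Gamma subunits are anchored to the membrane by a lipid that is attached to a cysteine near their end, and the last residue decides which lipid it is: a leucine there favours the geranylgeranyl group and a serine the farnesyl group. The ends of the coding sequences are shown because the gamma subunit Gng12 passed in C18-4 and 4 gamma subunits differed between the lines. Those that differed were Gng12, Gng2, Gng8 and Gng13, of which Gng13 is not printed. Gng11, Gng5 and Gng10, also printed, did not pass between the lines. The capitals mark the last 4 codons before the stop codon, which are the cysteine codon, 2 further codons and the last codon (GENCODE M21 transcripts on GRCm38).
Gng12: aagaagaccTGCATCATCTTAtag
Gng11: aagggcagcTGTGTCATTTCAtaa
Gng2: aagttcttcTGCGCCATCCTTtaa
Gng8: cgactctttTGCACCCTGCTCtga
Gng5: cagaaagtcTGCTCCTTTTTGtag
Gng10: cccaggtccTGTGCTCTACTTtga
All 11 gamma members carried a cysteine codon at this position. The last codon read leucine in 9 of them, Gng12 included, and serine in Gng11 and Gngt2.

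In C18-4 cells, the gamma subunit Gng12 was lower with shM5. It was decreased from 55.6 ± 3.02 RPKM to 32.5 ± 1.23 RPKM (SD, n = 3 each), and it alone among the 31 members tested passed an adjusted p of 0.05 in limma. Across all genes, 68 of 11611 (0.586%) did so. Libraries of the same replicate number deviated together in C18-4, and with the replicate number as a block 7 of the 31 members passed, all of them lower with shM5: Gng12, Gng11, Gnb4, Gnaq, Gnai1, Gnao1 and Rgs10. In that fit 11.9% of all genes passed, and 6.73% passed and were lower. The pairing comes from the replicate numbers and was strongest for number 3, and shNC libraries 1 and 2 correlated nearly as well with the other number as with their own.

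Gng12 encodes gamma 12, a widely expressed gamma subunit. Its values were 58.7, 55.4 and 52.7 RPKM in the shNC libraries and 31.9, 31.7 and 33.9 RPKM in the shM5 libraries, so the groups lay far apart. Gng12 shares 125 exon bases with 4930597O21Rik, a noncoding gene on the opposite strand that is not analysed here, and the counting was not stated to use strand. The log2 change was -0.77 ± 0.07 (SE), with adjusted p = 0.0337 in limma without the block and adjusted p = 0.000912 with it. Leaving out shNC library 1 or 2, or shM5 library 1 or 2, moved the change no further than -0.73 to -0.78 but raised the adjusted p to between 0.163 and 0.239.

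Gng11 encodes gamma 11, a gamma subunit whose end carries the serine codon shown above. It was at 4.42, 4.06 and 5.36 RPKM in the shNC libraries and 2.93, 2.52 and 2.81 RPKM in the shM5 libraries, with no overlap between the groups. Its log2 change was -0.72 ± 0.14 (SE), adjusted p = 0.1 without the block and 0.00779 with it. Gnb4, a minor beta subunit here, was at 6.85, 6.49 and 7.35 RPKM in the shNC libraries and 5.18, 5.09 and 5.81 RPKM in the shM5 libraries. The 3 shM5 values were again the lowest, and the log2 change was -0.36 ± 0.11 (SE) (adjusted p = 0.237, and 0.0263 with the block).

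Gnaq encodes alpha q, which, like alpha 11, couples Gq/11 receptors such as M5 to PLC-beta. It was at 14.8, 15.9 and 18.1 RPKM in the shNC libraries and 10.9, 10.8 and 12.4 RPKM in the shM5 libraries, a decrease of 29.9% in the mean, and every shM5 library was below every shNC library. The log2 change was -0.51 ± 0.11 (SE), with adjusted p = 0.116 in limma, 0.00368 with the block and 0.0483 after quantile normalisation. Gna11, whose product serves the same receptors, did not follow: its values were 30.1, 32.5 and 31.3 RPKM in the shNC libraries and 32.4, 33.1 and 31.6 RPKM in the shM5 libraries, with overlapping groups. Its log2 change was 0.05 ± 0.07 (SE) (95% interval -0.11 to 0.21).

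Gnai1 and Gnao1 encode inhibitory alpha subunits. Gnai1 was at 12.3, 12.5 and 16.1 RPKM in the shNC libraries and 9.82, 9.37 and 9.34 RPKM in the shM5 libraries, without overlap, and its log2 change was -0.50 ± 0.12 (SE) (adjusted p = 0.159, and 0.0168 with the block). Gnao1, best known from neurons, was at 1.63, 2.03 and 2.72 RPKM in the shNC libraries and 1.06, 1.19 and 1.81 RPKM in the shM5 libraries. Here shM5 library 3 was above shNC library 1, and the log2 change of -0.62 ± 0.26 (SE) passed with the block only (adjusted p = 0.403 without it, 0.0262 with it). The more abundant inhibitory subunits did not share the decrease. Gnai2 was at 202, 209 and 209 RPKM in the shNC libraries and 214, 212 and 213 RPKM in the shM5 libraries, slightly higher with shM5 in every library, with a log2 change of 0.04 ± 0.06 (SE) (adjusted p = 0.845). Gnai3 overlapped entirely between the groups (68.3, 64.7 and 61.7 RPKM with shNC and 67.2, 65.4 and 62.1 RPKM with shM5).

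Rgs10 was at 20.6, 19.9 and 19.4 RPKM in the shNC libraries and 14.8, 16.8 and 15.97 RPKM in the shM5 libraries. Its groups did not overlap, and its log2 change was -0.33 ± 0.08 (SE) (adjusted p = 0.159, and 0.0203 with the block). Rgs19, which acts on inhibitory alpha subunits, was at 52.6, 46.2 and 56.98 RPKM in the shNC libraries and 46.9, 45.2 and 50.8 RPKM in the shM5 libraries, with overlapping groups. Rgs3 (3.37, 4.13 and 4.81 RPKM with shNC and 2.91, 3.20 and 3.60 RPKM with shM5) and Rgs20 (3.54, 3.81 and 4.64 RPKM with shNC and 2.88, 2.88 and 4.48 RPKM with shM5) overlapped as well, and so did Rgs12 (7.52, 8.34 and 10.2 RPKM with shNC and 8.49, 7.73 and 9.36 RPKM with shM5).

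**Figure D2:**
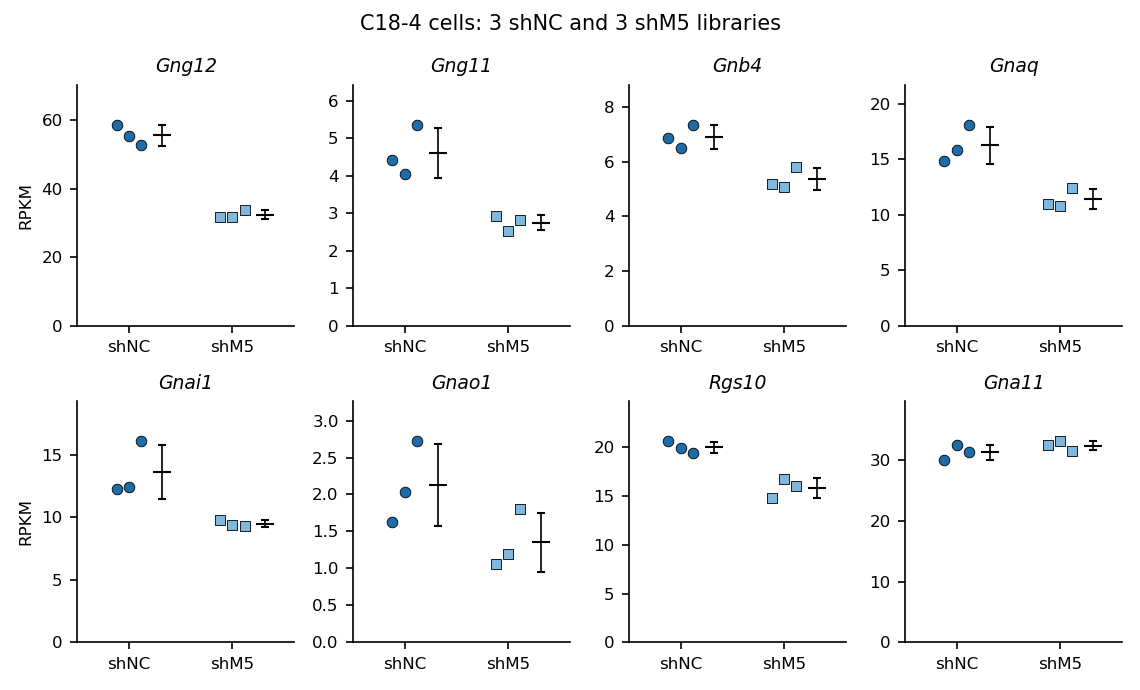
RPKM of the 7 members that passed the test with the replicate block, and of Gna11, in the 3 shNC (circles) and 3 shM5 (squares) libraries of C18-4 cells. Bars give the mean and SD of each group, and each axis starts at 0. Apart from Gnao1 and Gna11, every shM5 point lies below every shNC point.

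Neither phospholipase C beta tested in C18-4 cells passed either fit. Plcb3, which Gq/11 and beta-gamma pairs both activate, was at 12.5, 13.2 and 14.9 RPKM in the shNC libraries and 13.1, 12.9 and 13.9 RPKM in the shM5 libraries, and its log2 change of -0.02 ± 0.09 (SE) had a 95% interval of -0.24 to 0.20. Plcb4 was at 1.77, 2.04 and 3.41 RPKM in the shNC libraries and 1.94, 2.31 and 2.39 RPKM in the shM5 libraries, with an interval of -0.65 to 0.52 around -0.07. The interval of Plcb4 is wide and does not leave out a moderate change in either direction.

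Without regard to a threshold, the shM5 libraries were all below the shNC libraries for 7 of the 31 members (the 7 above with Gng2 in place of Gnao1), against 9.55% of all genes, and all above them for Gnai2 alone, against 9.3%. Gng2 was at 1.27, 1.21 and 1.08 RPKM in the shNC libraries and 1.04, 0.81 and 1.0 RPKM in the shM5 libraries. The change was below 0 for 24 of the 31 members, with a median of -0.09 on the log2 scale against -0.002 over all genes tested. The members that overlapped included the abundant Gnas (837, 811 and 891 RPKM with shNC and 821, 810.4 and 865 RPKM with shM5) and Gng5 (224, 201 and 225 RPKM with shNC and 229.9, 223 and 204 RPKM with shM5), and Gnb1 (156, 156 and 133 RPKM with shNC and 151, 149 and 136 RPKM with shM5). Gnb2 (265, 255 and 221 RPKM with shNC and 230.1, 223 and 218 RPKM with shM5) was lower in each pair of equal number. The G12/13 subunits were at 27.8, 29.6 and 30 RPKM with shNC and 26.98, 27.7 and 28.8 RPKM with shM5 for Gna12 and at 19.8, 18.6 and 24.3 RPKM with shNC and 22.2, 21 and 26.6 RPKM with shM5 for Gna13. The remaining tested members were Gnb5 (5.25 to 10.6 RPKM), Gng7 (2.72 to 3.19 RPKM), Gng10 (70.5 to 80.7 RPKM), Gng13 (0.67 to 1.35 RPKM), Gnat2 (1.15, 1.13 and 0.86 RPKM with shNC and 1.33, 1.39 and 0.97 RPKM with shM5), Gnaz (0.71 to 1.88 RPKM), Rgs11 (0.69 to 1.24 RPKM) and Rgs17 (0.57 to 1.25 RPKM) over the 6 libraries, and none passed either fit.

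Markers of cell types moved beside these members in C18-4. The summed level of 11 peritubular and fibroblast markers was 550 to 603 RPKM in the shNC and 677 to 796 RPKM in the shM5 libraries, and Col3a1, a collagen gene, was among the 68 genes that passed (log2 change 0.59 ± 0.06 (SE), adjusted p = 0.0367). With the block, 4 of the 8 markers tested rose, among them Acta2 at 1.34 and Tagln at 0.93. The rest of this list did not move as one. Pdgfrb (-0.63) and Pdgfra (-0.49) had lower values and Dcn (0.36) and Cnn1 (0.04) higher ones, none past the threshold. The summed level of 15 spermatogonial markers was 80.8 to 124 RPKM with shNC and 126.5 to 145 RPKM with shM5, and that of 16 Sertoli markers was 79.4 to 80.45 RPKM and 85.3 to 92.99 RPKM, without overlap in either list. With the block, Uchl1 (0.38), Rhox5 (1.39) and Wt1 (0.23) were higher and Gata4 (-0.51) was lower, out of 3 spermatogonial and 8 Sertoli markers tested. Most of the Sertoli sum was Wt1, at the level given above, so the sum does not show how the list moved. Of the other Sertoli markers tested, Inha (-0.66) and Gdnf (-0.60) had lower values and Inhbb (0.57), Kitl (0.21) and Clu (0.09) higher ones, none past the threshold. The part of these markers in the decrease of the G protein genes was not tested. In bulk RNA, fewer cells of a kind and less RNA per cell cannot be told apart.

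The 250 bases before the RefSeq start of 3 of the decreased genes are shown because these members were lower together in the fit with the block, written 5′ to 3′ on the strand of the gene (RefSeq, GRCm38.p6). Capitals mark the GC box GGGCGG and the E-box CACGTG on either strand.
Gng12, chr6:66896147-66896396, plus strand: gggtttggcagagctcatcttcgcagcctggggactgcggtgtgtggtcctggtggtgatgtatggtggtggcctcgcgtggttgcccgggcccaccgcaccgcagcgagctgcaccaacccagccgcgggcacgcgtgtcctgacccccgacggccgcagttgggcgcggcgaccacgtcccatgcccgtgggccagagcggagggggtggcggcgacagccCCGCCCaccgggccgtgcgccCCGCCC
Gnaq, chr19:16132434-16132683, plus strand: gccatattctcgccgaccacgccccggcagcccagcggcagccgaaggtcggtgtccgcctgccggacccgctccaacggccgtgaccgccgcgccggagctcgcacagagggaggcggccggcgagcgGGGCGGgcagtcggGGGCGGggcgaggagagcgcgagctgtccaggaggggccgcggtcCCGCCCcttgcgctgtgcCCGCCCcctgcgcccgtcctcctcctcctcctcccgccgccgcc
Gnai1, chr5:18360414-18360663, minus strand: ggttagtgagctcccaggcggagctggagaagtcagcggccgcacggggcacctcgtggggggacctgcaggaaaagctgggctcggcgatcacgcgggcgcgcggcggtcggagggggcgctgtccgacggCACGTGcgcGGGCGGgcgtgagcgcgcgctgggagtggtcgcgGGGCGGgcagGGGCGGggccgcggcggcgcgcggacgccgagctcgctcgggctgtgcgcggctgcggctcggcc
Gng12 had 2 GC boxes, Gnaq had 4 and Gnai1 had 3. Of 32851 mouse promoters of this length, 32.7% held at least 1 GC box. The E-box occurred once, in Gnai1, and in 6.0% of all promoters. The CCAAT box (CCAAT, in 33.8% of all promoters), the TATA box (TATAAA, in 12.4%), the cAMP response element (TGACGTCA, in 1.5%) and the AP-1 site (TGANTCA, in 6.7%) were searched on both strands as well. None of the 3 windows held their letters. GC content was 74.4%, 79.2% and 79.2%, with a median of 52.4% over all promoters. Of the other members lower with the block, Rgs10 had 2 GC boxes and Gnao1 had 0. Members that did not pass with the block ranged from 0, in Gnai3 and Gnb2 among others, to 7, at 1 start of Plcb4. Gna11 had 2 and Gng5 had 3, at a GC content of 73.2% and 82.4%. GC boxes and a high GC content were thus not particular to the decreased members. Gng12 had a further RefSeq start, whose window held 0 GC boxes, and Gng11 and Gnb4 are named only.

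In TM4 cells, none of the 26 members tested passed an adjusted p of 0.05 in limma, and neither did any of 11016 genes (0%), although 2866 genes and 5 members had an unadjusted p under 0.05. This outcome turned on shNC library 3. Of the 26 members, 22 had a value in this library that was nearer to the mean of the shM5 libraries than to that of shNC libraries 1 and 2, as had 85.0% of all genes tested. Without it, 18 of 26 members passed, 11 higher and 7 lower with shM5, while 67.4% of all genes passed, so the share of members was close to that of all genes. In the same fit 7 of 9 peritubular and fibroblast markers were higher with shM5, among them Pdgfra at 1.25, and 4 of 8 Sertoli markers were lower, among them Gdnf at -1.66 and Kitl at -1.33. Summed Sertoli markers were at 52.7 to 95.75 RPKM in the 3 shNC and 47.8 to 50.9 RPKM in the 3 shM5 libraries. The part of these markers in the member changes was not tested. Which of the shNC libraries represents the control state could not be told from the labels. Library 3 was singled out because it resembled the shM5 libraries, and removing such a control favours a difference. The p-values without it, here and below, depend on that choice and are no separate evidence of an effect of shM5. Numbers did not pair the TM4 libraries, and the block gave 0 members too.

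Plcb3 and Plcb4 had changes of opposite sign in TM4 cells. Plcb3 was at 11.9, 11.99 and 22.6 RPKM in the shNC libraries and 25.7, 26.96 and 22.2 RPKM in the shM5 libraries. The first 2 shNC libraries were near 12 RPKM, and shNC library 3 lay between shM5 libraries. The log2 change was 0.75 ± 0.26 (SE) (adjusted p = 0.192), and 1.05 ± 0.08 (SE) without shNC library 3 (adjusted p = 2.39e-05). Plcb4 was at 11.98, 12.9 and 5.52 RPKM in the shNC libraries and 5.79, 5.91 and 5.66 RPKM in the shM5 libraries, with shNC library 3 the lowest of all 6. Its log2 change was -0.71 ± 0.32 (SE) (adjusted p = 0.194), and -1.09 ± 0.07 (SE) without that library (adjusted p = 8.37e-06). Plcb3 shares 22 exon bases with Ppp1r14b on the opposite strand, which was at 114 to 273 RPKM over the 12 libraries.

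The Gq/11 subunits also had changes of opposite sign in TM4. Gna11 was at 15.4, 15.5 and 23.9 RPKM in the shNC libraries and 24.3, 23.4 and 24.6 RPKM in the shM5 libraries, and shNC library 3 lay within the shM5 range. Its log2 change was 0.43 ± 0.18 (SE) (adjusted p = 0.192), and 0.64 without that library (adjusted p = 2.14e-05). Gnaq was at 12.7, 12.9 and 12.2 RPKM in the shNC libraries and 10.9, 11.2 and 11.2 RPKM in the shM5 libraries, so that all shM5 values were below all shNC values, library 3 included. The log2 change of -0.18 ± 0.08 (SE) had adjusted p = 0.192, and without shNC library 3 it was -0.21 (adjusted p = 0.0115).

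Without overlap and with shNC library 3 kept, 4 members were higher with shM5 in TM4 (Gnai2, Gnb4, Rgs3 and Rgs12), against 15.7% of all genes, and 3 were lower (Gnaq, Gng5 and Gng12), against 11.1%. Gnai2 was at 148, 141 and 221 RPKM in the shNC libraries and 231, 238 and 223 RPKM in the shM5 libraries, with a log2 change of 0.47 ± 0.17 (SE) (adjusted p = 0.192), and 0.67 without shNC library 3 (adjusted p = 9.71e-06). Gnb4 was at 6.69, 6.19 and 8.39 RPKM in the shNC libraries and 9.73, 10.1 and 9.28 RPKM in the shM5 libraries, with a log2 change of 0.46 ± 0.13 (SE) (adjusted p = 0.192), and 0.58 without that library (adjusted p = 0.000245). In both genes shNC library 3 was the highest control. Rgs3, which acts on Gq and inhibitory alpha subunits, was at 11.6, 11.8 and 11.5 RPKM in the shNC libraries and 15.3, 15.6 and 11.9 RPKM in the shM5 libraries. Here it was shM5 library 3 that stood near the controls, and shNC library 3 lay with its group. The log2 change of Rgs3 was 0.29 ± 0.12 (SE) (adjusted p = 0.192), and 0.28 without shNC library 3, short of the threshold (adjusted p = 0.0628). Rgs12 was at 4.80, 4.72 and 5.64 RPKM in the shNC libraries and 6.30, 6.42 and 6.11 RPKM in the shM5 libraries. Its log2 change was 0.31 ± 0.11 (SE) (adjusted p = 0.192), and 0.39 without shNC library 3 (adjusted p = 0.00212).

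Gng5 was at 382, 382 and 269.8 RPKM in the shNC libraries and 229.8, 244 and 256 RPKM in the shM5 libraries, with shNC libraries 1 and 2 far above the other 4. Gng12 was at 97.5, 102 and 96.8 RPKM in the shNC libraries and 92.1, 88.2 and 86.97 RPKM in the shM5 libraries, and shNC library 3 lay with its own group. The log2 change of Gng5 was -0.49 ± 0.15 (SE) and that of Gng12 -0.15 ± 0.06 (SE) (adjusted p = 0.192 and adjusted p = 0.192). Without shNC library 3 they were -0.65 (adjusted p = 2.12e-05) and -0.16 (adjusted p = 0.0119). Gng11 (4.31, 3.13 and 6.83 RPKM with shNC and 5.60, 5.48 and 6.29 RPKM with shM5), Gng7 (2.18, 2.17 and 3.47 RPKM with shNC and 3.74, 3.91 and 2.96 RPKM with shM5) and Gnb2 (159, 159.9 and 213 RPKM with shNC and 209, 215 and 205 RPKM with shM5) were higher with shM5 only against shNC libraries 1 and 2. The same held for Gnb1 (132, 129.6 and 154 RPKM with shNC and 151, 152 and 158 RPKM with shM5) and Rgs10 (17.7, 18.1 and 25.4 RPKM with shNC and 25.3, 23.3 and 23.3 RPKM with shM5). Rgs19 (42.9, 45.4 and 34.96 RPKM with shNC and 33.9, 34.1 and 36.3 RPKM with shM5) and Gng2 (32.5, 33.1 and 26.6 RPKM with shNC and 28.3, 28.4 and 23.1 RPKM with shM5) were lower only against these 2 libraries.

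**Figure D3:**
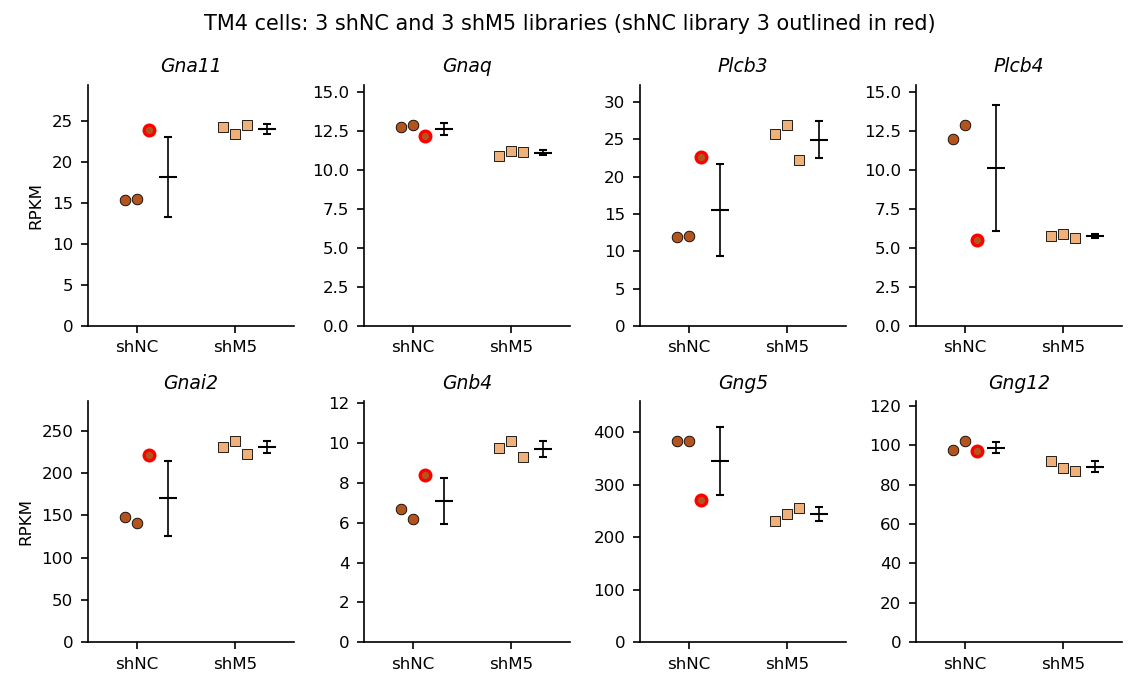
RPKM of 8 members in the 3 shNC (circles) and 3 shM5 (squares) libraries of TM4 cells, with shNC library 3 outlined in red. Bars give the mean and SD of each group, and each axis starts at 0. The outlined point lies among or beside the squares for Gna11, Plcb3, Plcb4 and Gnai2, nearer to them for Gng5 and Gnb4, and with the other circles for Gnaq and Gng12.

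The other members tested in TM4 were Gnas (629, 615 and 658 RPKM with shNC and 663, 692 and 652 RPKM with shM5), Gna12 (25.7, 23.5 and 28.6 RPKM with shNC and 26.5, 28.6 and 28.97 RPKM with shM5) and Gna13 (16.8, 18.5 and 18.4 RPKM with shNC and 17.2, 17.9 and 17.98 RPKM with shM5). Gnas and Gna12 passed only where libraries were left out, Gnas without number 3 of both groups and Gna12 also without shNC library 3 alone. Gnat2, a transducin alpha subunit of cone photoreceptors, was at 2.75, 3.57 and 1.56 RPKM in the shNC libraries and 1.63, 1.84 and 2.31 RPKM in the shM5 libraries, and Gna13, Gnai3, Gnb5, Gng8, Gng10 and Rgs2 passed in none of the fits.

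The effect of shM5 was compared between the lines in a fit of all 12 libraries. The interaction passed for 1 of 32 members, Gng12, while 12 of 11773 genes (0.102%) passed. The decrease of Gng12 in C18-4 (-0.77) was stronger than that in TM4 (-0.15), a difference of 0.63 ± 0.09 (SE) (adjusted p = 0.0468). This call was close to the threshold and gave an adjusted p of 0.114 with the block, 0.069 after scaling to equal sums and 0.0528 without the trend. Leaving out single libraries raised it to between 0.0664 and 0.17, except for C18-4 shNC library 3 and TM4 shNC library 3, without which it held. Gnb4 was lower in every C18-4 shM5 library and higher in every TM4 shM5 library, a difference of 0.82 ± 0.17 (SE) (adjusted p = 0.109), which passed after quantile normalisation (adjusted p = 0.0494). It also passed without TM4 shNC library 3 (adjusted p = 0.000395), where 12 of 32 members and 38% of all genes passed. These contrasts share all their libraries with those within each line.

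**Figure D4:**
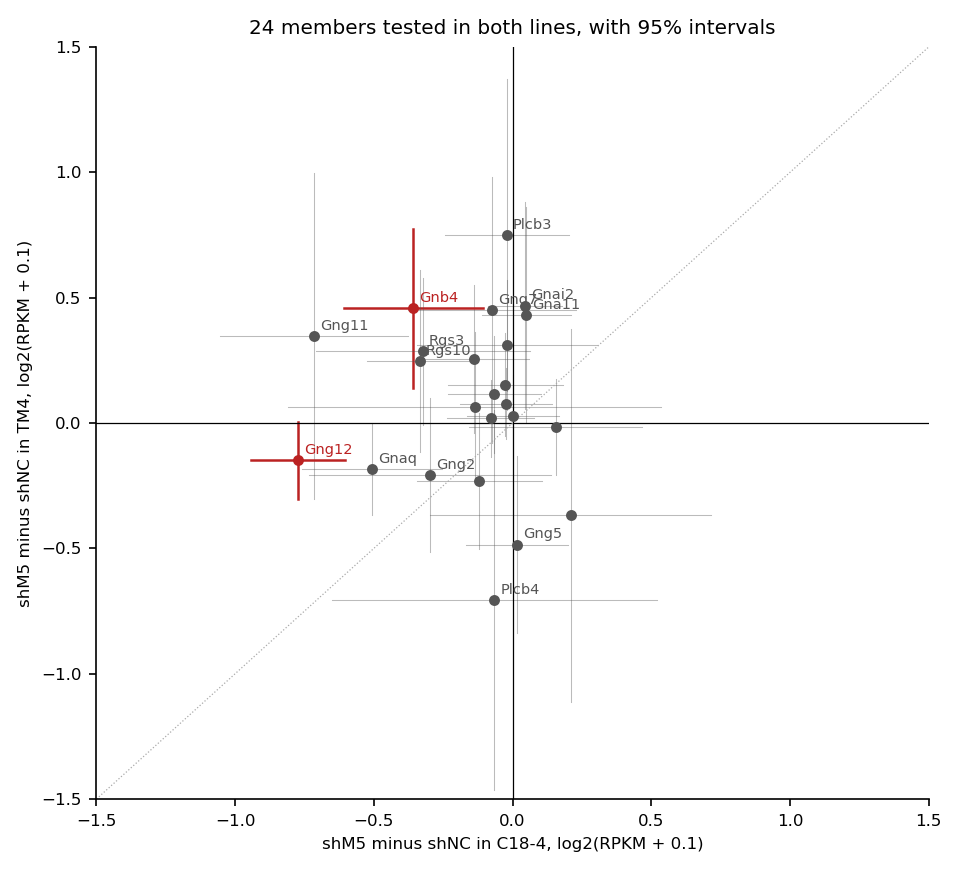
Change with shM5 in C18-4 (x axis) and in TM4 (y axis), both as differences of log2(RPKM + 0.1), for the 24 members tested in both lines, with 95% intervals. The dotted line marks equal change. Gng12 and Gnb4 are red: Gng12 is below 0 on both axes, and Gnb4 is below 0 in C18-4 and above 0 in TM4.

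The lines differed in which members they used. Of 32 members, 12 passed an adjusted p of 0.001 with a log2 difference of at least 1 in limma, as did 26.3% of the 11773 genes tested. Higher in C18-4 were 6 members (Gnai1, Gnao1, Gnaz, Gng13, Rgs11 and Rgs20), where 16.8% of genes were, and higher in TM4 were the other 6 (Gng2, Gng8, Gng12, Plcb4, Rgs2 and Rgs3), where 9.54% of genes were. The 6 of C18-4, and Gng8 and Rgs2 of TM4, had a mean under 0.5 RPKM in the other line. They passed the filter only through the line where they were high, so these counts are partly set by the filter. At an adjusted p of 0.05 alone, 27 members passed, and 73% of all genes. Quantile normalisation moved the median difference of all genes from 0.136 to -0.019 on the log2 scale and split the genes past the threshold into 1530 higher in C18-4 and 1506 higher in TM4, against 1978 and 1123 without it. Of the members, 4 and 7 then passed, with Gnaz and Rgs11 lost and Gnat2 gained.

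Of the inhibitory alpha subunits and their relatives, Gnai1, Gnao1 and Gnaz passed higher in C18-4. Gnai1, which lay between 9.34 and 16.1 RPKM in C18-4, was listed at 0 in all 6 TM4 libraries, and so was Gnao1 (1.06 to 2.72 RPKM in C18-4). Gnaz, an alpha subunit of the same family that resists pertussis toxin, was at 0.93, 0.87 and 1.88 RPKM with shNC and 0.98, 0.71 and 0.84 RPKM with shM5 in C18-4. In TM4 it was at 0.03, 0.02 and 0.10 RPKM with shNC and 0.08, 0.07 and 0.02 RPKM with shM5, a difference of 2.85 ± 0.22 (SE). No fold is given where 1 line was at 0. Between the lines Gnai2 was close (0.10, 95% interval -0.11 to 0.30), and Gnai3 was higher in TM4 (85.8, 87.6 and 88.1 RPKM with shNC and 89.3, 83.9 and 93.6 RPKM with shM5), by less than the threshold. Gnat2 also had its higher mean in TM4 and was short of the threshold (-0.90 ± 0.19 (SE)).

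RGS members passed in both directions. Rgs20 and Rgs17, both of the RZ family that acts on Gnaz and its relatives, were seen in C18-4, whereas Rgs19, the most abundant member of that family, was present in both lines (difference 0.40 ± 0.08 (SE), short of the threshold). Rgs20, with the values above, was at most 0.05 RPKM in TM4 (difference 5.05 ± 0.17 (SE)). It shares 127 exon bases with Atp6v1h on the opposite strand, which was at 28.9 to 53.4 RPKM over the 12 libraries. Rgs17 was at 0.57, 0.70 and 1.25 RPKM with shNC and 0.75, 0.62 and 0.88 RPKM with shM5 in C18-4 and at 0 in every TM4 library. Rgs17 was under the filter across both lines and passed only without it. Rgs11, an R7 family protein, was at 0.81, 0.69 and 1.24 RPKM with shNC and 0.79, 0.84 and 1.16 RPKM with shM5 in C18-4. In TM4 it was at 0.13, 0.07 and 0.24 RPKM with shNC and 0.13, 0.24 and 0.11 RPKM with shM5 (difference 2.03 ± 0.21 (SE)). It shares 138 exon bases with Arhgdig on the opposite strand, which was at 15.6 to 21.02 RPKM in C18-4 and at most 0.06 RPKM in TM4. Rgs7, of the same family, was at 0.12, 0.18 and 0.57 RPKM with shNC and 0.39, 0.29 and 0.27 RPKM with shM5 in C18-4, at 0 in all TM4 libraries, and passed only without the filter. TM4 had more of 3 members of the R4 family, which acts on Gq and inhibitory alpha subunits: Rgs2, an inhibitor of Gq, was at 2.67, 2.57 and 2.42 RPKM with shNC and 2.42, 2.34 and 3.03 RPKM with shM5 there. In C18-4 it was at 0.25, 0.27 and 0.15 RPKM with shNC and 0.21, 0.21 and 0.32 RPKM with shM5 (difference -3.01 ± 0.14 (SE)). The difference of Rgs3, with the values above, was -1.80 ± 0.10 (SE). Rgs4 was at 0.23, 0.27 and 0.32 RPKM with shNC and 0.23, 0.48 and 0.27 RPKM with shM5 in TM4, at 0 in all C18-4 libraries, and passed only without the filter. The D family members Rgs10 and Rgs12 differed by -0.30 and 0.60, short of the threshold.

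The gamma subunits carried the largest differences toward TM4. Gng2 was at 23.1 to 33.1 RPKM in TM4 and 0.81 to 1.27 RPKM in C18-4, 26.8 times as high in the mean, with a difference of -4.62 ± 0.10 (SE). Gng8 was at 3.73, 4.97 and 4.17 RPKM with shNC and 3.36, 3.85 and 2.63 RPKM with shM5 in TM4 and at most 0.15 RPKM in C18-4 (difference -4.54 ± 0.20 (SE)). Gng12 was higher in TM4 by 2.13 times in the mean, with a difference of -1.14 ± 0.05 (SE), and its difference between the shNC groups alone was -0.83. Gng13, which was at 1.08, 1.11 and 1.13 RPKM with shNC and 0.89, 0.67 and 1.35 RPKM with shM5 in C18-4, was listed at 0 in all TM4 libraries. It shares 399 exon bases with Chtf18 on the opposite strand, and Chtf18 was at 4.95 to 13.1 RPKM in TM4. Plcb4 was at 5.52 to 12.9 RPKM in TM4 and 1.77 to 3.41 RPKM in C18-4 (difference -1.67 ± 0.21 (SE)). Plcb1, below the filter and past the threshold only without it, was at 0.54, 0.50 and 0.33 RPKM with shNC and 0.34, 0.32 and 0.44 RPKM with shM5 in TM4 and 0.03 to 0.07 RPKM in C18-4.

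**Figure D5:**
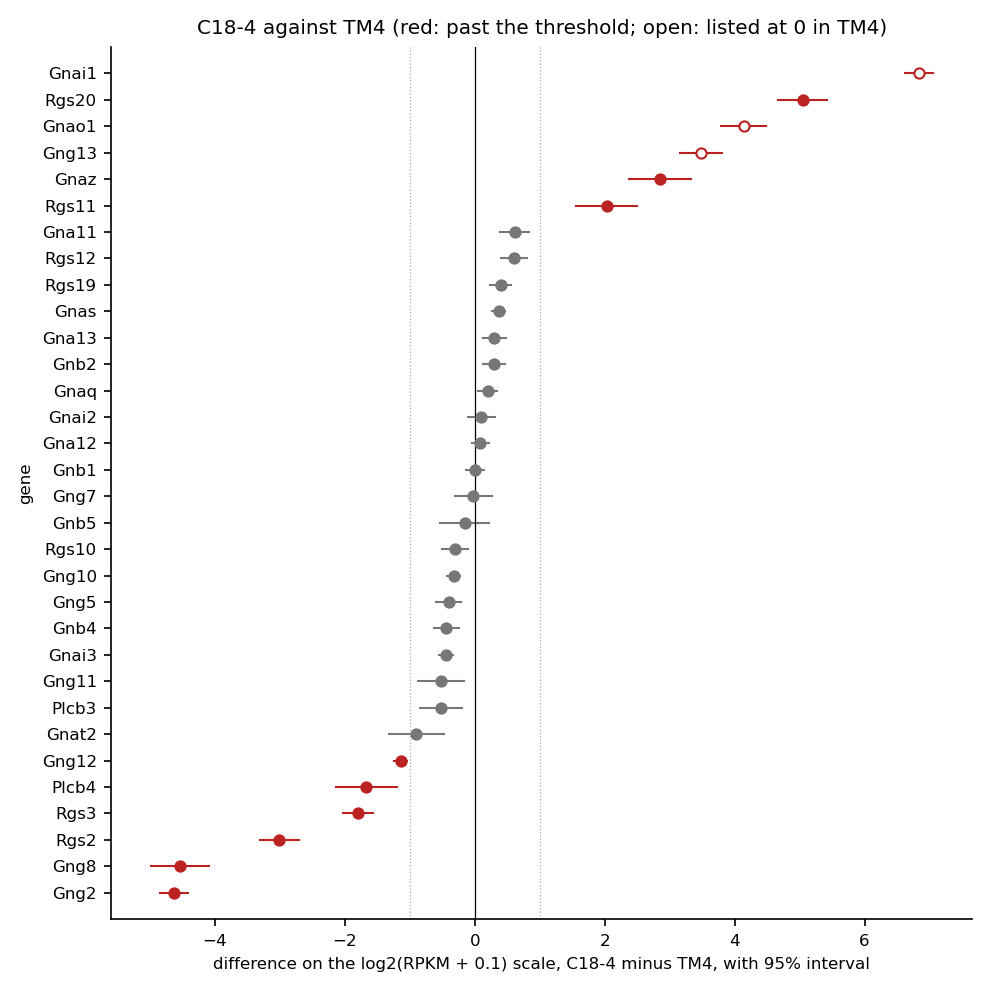
Difference between C18-4 and TM4 on the log2(RPKM + 0.1) scale for the 32 members tested, with 95% intervals, with dotted lines at a difference of 1 in either direction. Red marks the 12 members past the threshold, and open circles mark Gnai1, Gnao1 and Gng13, listed at 0 in TM4, whose plotted size depends on the added 0.1 RPKM.

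No beta subunit tested passed the threshold between the lines, nor did Gng5, Gng7 or Gng10. Gng5 and Gnb4 were higher in TM4 at an adjusted p of 0.05, with differences of -0.40 ± 0.09 (SE) (adjusted p = 0.00136) and -0.44 ± 0.09 (SE) (adjusted p = 0.000668). Gnb1 was at 133 to 156 RPKM in C18-4 and 129.6 to 158 RPKM in TM4, with a 95% interval of -0.13 to 0.15 for the difference. Gnb2 was at 218 to 265 RPKM and 159 to 215 RPKM, Gnb5 at 5.25 to 10.6 RPKM and 6.51 to 8.35 RPKM, and Gng10 at 80.7, 76.8 and 74.02 RPKM with shNC and 75.1, 73.5 and 70.5 RPKM with shM5 in C18-4 and 92.1, 91.9 and 96.3 RPKM with shNC and 93.9, 91.8 and 98.1 RPKM with shM5 in TM4. Gnb3, past the threshold only without the filter, was at 0.14, 0.14 and 0.32 RPKM with shNC and 0.31, 0.32 and 0.79 RPKM with shM5 in C18-4 and at most 0.03 RPKM in TM4. The Gq/11 subunits differed by 0.61 ± 0.10 (SE) for Gna11 and 0.20 ± 0.07 (SE) for Gnaq, both short of a log2 difference of 1.

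Of the receptors and effectors around these members, 12 lists with 85 genes were followed, 78 of them in the table. The muscarinic receptors were barely detected, and none passed the filter. Chrm1, which also couples to Gq/11, was at 0.52, 0.68 and 0.72 RPKM in the shNC libraries and 0.18, 0.12 and 0.29 RPKM in the shM5 libraries in C18-4, so its groups did not overlap, and at no more than 0.01 RPKM in TM4. It was not tested, being under the mean of 0.5 RPKM. Chrm3 was at 0 in all C18-4 libraries and at most 0.06 RPKM in TM4, and Chrm4 was at 0.16 to 0.32 RPKM in C18-4 and 0.02 to 0.22 RPKM in TM4. Chrm2 is not analysed here.

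Within C18-4, none of the 55 genes tested from these lists passed in limma, and 5 had an unadjusted p under 0.05. With the block, 4 of 55 passed, against 11.9% of all genes. Adcy7, an adenylyl cyclase that beta-gamma pairs activate, rose by 0.80 on the log2 scale (1.81, 1.95 and 2.15 RPKM with shNC and 3.52, 3.49 and 3.48 RPKM with shM5). Plcl1 at 0.63 and Prkci at 0.20, an inactive phospholipase relative and an atypical protein kinase C, rose as well, and Rap1gap, a partner of inhibitory alpha subunits, was lower at -0.81. In TM4, none of 50 passed, with 11 at an unadjusted p under 0.05. Without shNC library 3, 27 were higher and 11 lower of 50, where 67.4% of all genes passed. The interaction passed for none of 55, with 11 at an unadjusted p under 0.05.

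Between the lines, 8 of 55 were higher in C18-4 and 6 in TM4, shares close to the 16.8% and 9.54% of all genes. Of 4 adenylyl cyclases tested, the targets of Gnas and the inhibitory subunits, Adcy1 and Adcy3 were higher in C18-4 and Adcy7 was higher in TM4. Both regulatory subunits of protein kinase A that passed, Prkar1b and Prkar2b, were higher in TM4, of 6 tested. Of 3 IP3 receptors, 1 was higher in TM4 (Itpr2). Protein kinase C and the diacylglycerol kinases each had 1 of 6 higher in each line, and Plcg2 and Plcl1 were higher in C18-4 of 6 other phospholipases C. Of 6 genes that attach lipids to proteins such as gamma subunits or process the ends of these proteins, 2 were higher in C18-4. They were Pggt1b, a subunit of the geranylgeranyl transferase, and Rce1, the protease that cuts after it. Receptor kinases and arrestins (6 tested), alpha subunit chaperones and GoLoco proteins (6) and beta-gamma assembly factors (2) had none past the threshold.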

How the data were processed

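RNA of 12 libraries was sequenced by the authors after oligo(dT) selection on an Illumina HiSeq, mapped to reference genes with SOAPaligner and transformed into RPKM. The labels give total RNA. The deposited RPKM, with 2 decimals for 17995 genes, were used as they stand. Genome build and annotation are not given in the sources used here, and whether counting used strand is not stated. RPKM keeps no read numbers, so the counting error of a value is unknown. The RPKM of 1 read, estimated from 21 genes with few reads, was 0.981 to 1.018 of its median across libraries. These genes were kept only where their values lay near whole multiples of the lowest one. That rule favours equal values, so the range cannot show whether a library differed in depth.

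Group and replicate were taken from the labels. The members and all gene lists were chosen with earlier results of these data known. Members were matched by symbol. Values were fitted as log2(RPKM + 0.1) with limma 3.58.1 in R 4.3.3 (eBayes with a trend) for genes whose mean RPKM in the fitted libraries was 0.5 or more, and p-values were adjusted over all genes tested by the Benjamini-Hochberg method. Fold changes of low genes are understated on this scale. Calls needed an adjusted p under 0.05. Between lines the threshold of the study was used, an adjusted p of at most 0.001 and a log2 difference of at least 1. Exact permutation of 3 against 3 libraries cannot go below 0.1 and was not used. The fitting step was tested on simulated data.

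Every member whose mean RPKM reached 0.5 in a line was to be named, with library values for those called in any fit and for Gq subunits and PLC-beta. Of other lists, genes called within a line and the muscarinic receptors were to be named. Other genes were chosen after their values were seen. The result of 1 of the lists is not reported here.

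Deviations from the group means of libraries with equal number correlated at 0.439, 0.409 and 0.631 in C18-4, so the numbers were taken to pair these libraries (numbers 1 and 2 crossed at 0.341 and 0.345). In TM4 they were 0.073, 0.049 and 0.127, which is no pairing. Alternatives were pseudocounts of 1 and 0.01, no filter or a mean of 2 RPKM, quantile normalisation, equal sums, no trend, left-out libraries and the replicate block. Coding ends came from GENCODE M21 and promoters from RefSeq, which held 40 of the 52 members.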

Additional observations from a re-analysis of the deposited data

Results flagged for a closer look

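The response of Gng12 to shM5 differed between the lines by 0.63 on the log2 scale (TM4 minus C18-4), by the interaction test of limma (adjusted p = 0.0468). Gng12 was lower with shM5 in all libraries of both lines, -0.77 in C18-4 and -0.15 in TM4. Values of TM4 shNC library 3 lay with the other shNC libraries for this gene. No explanation was tested.

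Gnb4 was lower in all 3 shM5 libraries of C18-4 and higher in all 3 of TM4, and the difference was 0.82 on the log2 scale. The interaction test gave adjusted p = 0.109 over all genes, which is past no threshold used here. The 3 shM5 values in TM4 exceeded shNC library 3 by less than they exceeded shNC libraries 1 and 2.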

How the results depend on the processing

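In C18-4, 1 member passed as reported. The count was 2 after quantile normalisation, 0 at the threshold of the study, 7 with the replicate block and 8 without number 3 of both groups (the 7 of the block and Gnb2), where 26.2% of all genes passed. Leaving out single libraries gave 0 to 1. In TM4, 0 passed, against 20 without number 3 of both groups, where 72.7% of all genes passed, and single libraries left out gave 0 to 18, with 18 only without shNC library 3. The replicate block, which pairs nothing in TM4, gave 0 there, over members and over all genes. Between the lines, 12 passed, against 5 at a mean of at least 2 RPKM, which leaves 7 of the 12 untested, and 27 at an adjusted p under 0.05 alone. Leaving out single libraries gave 9 to 13, with 9 without C18-4 shNC library 3, where Gng13, Gnaz and Rgs11 fell under the filter. The shNC groups alone kept 9, without Gng12, Plcb4 and Rgs11. For the interaction, 1 passed, against 2 after quantile normalisation and 0 after scaling to equal sums, without the trend or with the replicate block. Leaving out single libraries gave 0 to 12, with 12 without TM4 shNC library 3. Where a count changed in other ways than by fewer genes or libraries, the cause was not tested. Over all genes, 68 calls in C18-4 became 4 without a filter, 30 with equal sums, 45 without the trend, 1386 with the replicate block and 3029 without number 3 of both groups, and single libraries left out gave 0 to 237. No alternative turned the direction of a member called in the main tests or with the block. Directions of Gnas, Gnb1, Plcb3 and Rgs12 in C18-4, none of them called, turned with equal sums. RPKM gives no read depth per value, so members under 0.5 RPKM are known to 2 decimals only.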

Other observations

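Summed over all beta members, levels were 303 to 382 RPKM in the TM4 shNC and 377 to 385 RPKM in the TM4 shM5 libraries, and 372 to 434 against 369 to 392 RPKM in C18-4. Summed over all gamma members, they were 504 to 620 against 457 to 477 RPKM in TM4 and 343 to 374 against 318 to 346 RPKM in C18-4. Ric8a, a chaperone of alpha subunits chosen here after its values were seen, was at 36.9, 37.3 and 18.2 RPKM with shNC and 16.6, 16.9 and 17.1 RPKM with shM5 in TM4, and its values in C18-4 were 13.4, 13 and 15.8 RPKM with shNC and 12.8, 13.4 and 16.2 RPKM with shM5.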
